A study of Rattus norvegicus with 32 samples.

Results

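The genes of potassium channel subunits were described in RNA-seq libraries of 4 rat brain regions. Members were all gene names that start with Kcn, followed by the letter or letters of a subfamily and a number, except Kcnj13. Of 90 such names, 83 had a total count of at least 100 over the 32 libraries and were kept, of 28914 gene names in the files. The 7 names left out for low counts were Kcna10, Kcna7, Kcne1, Kcnj1, Kcnk6, Kcnmb1 and Kcnu1. Kcnd2 was not analysed here.

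The libraries came from the nucleus accumbens (NAc), dentate gyrus (DG), cornu ammonis (CA) and subventricular zone (SVZ) of adult male Sprague-Dawley rats. Rats received methamphetamine hydrochloride (METH, 10 mg/kg) or saline (Sal) in 4 intraperitoneal injections 2 h apart, and tissue was taken the day after the last injection. Each of the 8 groups (NAc Sal, NAc METH, DG Sal, DG METH, CA Sal, CA METH, SVZ Sal and SVZ METH) held 4 libraries. The labels name no transgene or other agent, and they do not tie the regions to individual rats. Fits over several regions therefore take the libraries as independent, although regions of one rat are not. Because nothing states that the 4 libraries of a group came from separate rats, p-values measure the spread between these libraries, which may be partly technical.

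Potassium channels let K+ leave the cell and so hold the resting potential, end the action potential and set how often a neuron fires. Voltage-gated (Kv) channels are tetramers of alpha subunits that open on depolarisation, and beta subunits and KChIP proteins change their traffic and gating. Inward rectifiers and tandem-pore leak channels act near rest, and the BK, SK and sodium-activated channels open when calcium or sodium enters during firing. In the hippocampus and striatum these channels shape the spike trains of principal neurons, and astrocytes use an inward rectifier to take up the K+ that neurons release. The 83 members were 6 Kv1, 1 Kv2, 4 Kv3 and 2 Kv4 alpha subunits, 10 electrically silent Kv subunits, 5 Kv7 and 8 EAG, ERG and ELK subunits, 7 beta subunits, 4 KChIPs, 13 inward rectifiers, 13 tandem-pore leak subunits, 4 BK subunits, 4 SK and IK subunits and 2 sodium-activated subunits.

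The 250 bases before the transcription start are shown for 4 members whose levels differed between the hippocampal and the other regions, a pair higher in the hippocampus (Kcnj6 and Kcnc4) and a pair lower there (Kcnj2 and Kcna5). They were taken from RefSeq promoters of build GRCr8, which held an entry for 57 of the 83 members, and are written 5′ to 3′ on the strand of the gene. Capitals mark GC boxes (GGGCGG, the core of the Sp1 site) and E-boxes (CAGCTG, a core bound by basic helix-loop-helix factors).
Kcnj6, chr11:47778349-47778598, minus strand: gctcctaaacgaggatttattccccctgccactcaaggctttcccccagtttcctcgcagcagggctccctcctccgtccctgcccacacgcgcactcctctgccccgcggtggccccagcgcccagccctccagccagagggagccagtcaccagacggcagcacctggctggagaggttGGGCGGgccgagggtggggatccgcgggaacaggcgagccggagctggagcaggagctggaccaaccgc
Kcnc4, chr2:197788434-197788683, minus strand: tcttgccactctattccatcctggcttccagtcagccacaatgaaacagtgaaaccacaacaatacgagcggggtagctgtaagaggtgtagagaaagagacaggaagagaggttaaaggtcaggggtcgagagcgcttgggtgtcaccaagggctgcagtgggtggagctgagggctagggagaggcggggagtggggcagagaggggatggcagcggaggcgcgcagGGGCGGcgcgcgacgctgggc
Kcnj2, chr10:96559975-96560224, plus strand: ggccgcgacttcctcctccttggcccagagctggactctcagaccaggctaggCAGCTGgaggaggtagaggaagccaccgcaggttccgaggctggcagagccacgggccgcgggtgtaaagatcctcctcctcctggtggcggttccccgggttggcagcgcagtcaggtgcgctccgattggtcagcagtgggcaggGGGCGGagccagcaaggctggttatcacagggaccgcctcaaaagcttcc
Kcna5, chr4:161043810-161044059, minus strand: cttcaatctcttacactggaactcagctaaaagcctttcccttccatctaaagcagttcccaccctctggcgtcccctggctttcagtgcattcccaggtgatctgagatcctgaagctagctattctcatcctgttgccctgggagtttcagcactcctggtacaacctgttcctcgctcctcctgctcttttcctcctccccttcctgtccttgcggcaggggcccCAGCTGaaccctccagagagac
A GC box was present in the promoters of Kcnj6, Kcnc4 and Kcnj2, and an E-box in those of Kcnj2 and Kcna5. Both strands were searched. Over all 62 promoter entries of members, GGGCGG or its complement CCGCCC was present in 33 (53.2%), beside 30.5% of all 33469 promoters of the same length. The palindrome CAGCTG was present in 13 (21% of member promoters and 12% of all). TATAAA or its complement TTTATA was found in 0 member promoters and in 12.9% of all, and the palindrome TGACGTCA in 0 and in 1.59%. The median GC content was 61% in member promoters and 51.2% in all. A match is a description of the window and not a site of binding.

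Several libraries stood apart in their marker sums or library numbers. Total counts lay between 11094002 and 21869773 per library. The summed level of 8 markers of striatal medium spiny neurons, in CPM (counts scaled to a common library size), was 1772 in DG Sal 3 and 173 to 286 in the other DG Sal libraries, and 229 in NAc METH 3 beside 2885 to 3346 in the other NAc METH libraries. The same sum was 278, 185 and 818 in SVZ Sal 1, SVZ METH 2 and SVZ METH 4, which also had sums of 5 thalamic markers of 1825, 1645 and 1115 (86.1 to 486 in the other SVZ libraries). The sum of 6 dentate granule markers had a lower median in DG Sal (157 CPM) than in CA Sal (292 CPM). Medians were 165 CPM in NAc Sal and 191 CPM in SVZ Sal, so this sum did not set DG Sal apart. The median of this sum was 382 CPM in DG METH and 233 CPM in CA METH libraries. DG METH 1, 2 and 4 lay above every CA METH library, while DG METH 3 had the lowest sum of both groups. The count files of DG Sal 1 and 2 carry the library numbers (20 and 21) that METH 1 and 2 carry in the NAc and CA, and DG METH 1 and 2 carry those of Sal 1 and 2 (14 and 15). In the SVZ, METH 1 and 2 share a library number, as do METH 3 and 4. Counts of members are therefore also given without the libraries that stand apart in striatal or thalamic sums, and without DG 1 and 2. These exclusions were chosen after the data were seen. Striatal sums themselves differ between the regions compared, so counts without libraries picked by them are no independent test of region. Shares over all genes were computed only for the main fits, which used every library of the groups compared. For the NAc against the SVZ, a count is also given with the SVZ METH libraries of one number summed. Otherwise the 4 SVZ METH libraries were taken as separate. NAc and CA libraries of one treatment and replicate carry the same library number. All 8 SVZ libraries carry 1 name prefix in the file headers, taken here as the sequencing run, that no library of another region carries. The SVZ and this run therefore cannot be told apart. CA Sal 1 and 2 carry the prefix merged, which names no single run. The study's methods state 2 sequencing batches. In tissue, fewer cells of a type and less RNA per cell cannot be told apart.

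Beta subunits and Kv7 and Kv1 channels were among the most abundant member transcripts. Between genes, levels were compared as CPM per kilobase of exon (RPKM, mean of 32 libraries). Kcnab2, a cytoplasmic beta subunit of Kv1 channels, had the highest level with 111 RPKM. Kcnab1, another Kv1 beta subunit, had 55.1 RPKM. Kcnj10, the Kir4.1 inward rectifier of astrocytes, had 54.8 RPKM, and Kcna1, an axonal Kv1 subunit, 53 RPKM. Kcnq3, a Kv7 subunit of the M-current that damps repetitive firing, reached 46.1 RPKM, Kcnma1, the pore of the BK channel, 41.4 RPKM, and the fast Kv3 subunits Kcnc2 and Kcnc1 36.4 and 36.1 RPKM. In all, 37 members had a mean of at least 10 RPKM, 13 had under 1 RPKM and 77 had a count in every library.

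Levels within a subfamily covered a wide range. Among the inward rectifiers the mean ran from 54.8 RPKM (Kcnj10) to 0.216 RPKM (Kcnj15), with a median of 8.79 RPKM over 13 members. The tandem-pore leak subunits had a median of 2.54 RPKM and were led by Kcnk1 with 21.7 RPKM. The electrically silent subunits, which form channels only together with Kv2 subunits, were led by Kcnf1 with 25.2 RPKM. Neighbours in this order overlapped over libraries, since Kcnab2 covered 41.6 to 258 RPKM, Kcnab1 14.8 to 189 RPKM and Kcnc2 5.25 to 206 RPKM.

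**Figure D1:**
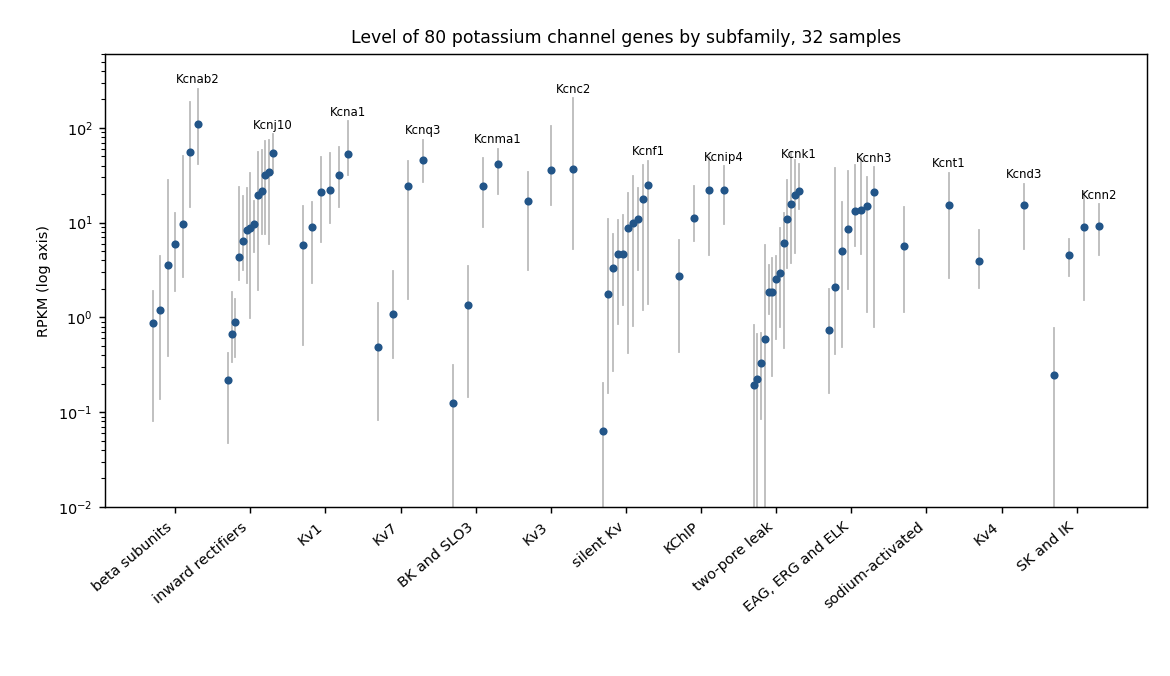
Mean RPKM (points, log axis) of each of 80 members over 32 libraries, grouped by subfamily, with lines from the lowest to the highest library (lines that reach 0 are cut at the bottom of the axis). The highest member is Kcnab2 at 111 RPKM, and 13 members have a mean under 1 RPKM.

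The first question was whether the member genes differ between regions in saline-treated rats. The Kir3 subunits Kcnj3 and Kcnj6, the silent Kv subunits Kcng2, Kcns1 and Kcns3, the Kv3 subunit Kcnc4 and the BK subunits Kcnma1 and Kcnmb4 were higher in the hippocampal regions (DG and CA) than in the NAc and SVZ, which are called subcortical here as a working name. Kcna5, Kcnh4, Kcnk2, Kcnj2 and Kcnt1 were among those lower there. By the quasi-likelihood test of edgeR, with false discovery rates (FDR, Benjamini-Hochberg) computed over every gene tested, 24 of 78 members tested differed at an FDR under 0.05 (30.8%), while 12.1% of all 15515 genes did. Of these, 15 were higher in the hippocampal regions (19.2% of members, 5.93% of all genes) and 9 lower (11.5% of members, 6.18% of all genes). The median log2 difference was 0.14 over members and -0.054 over all genes. The 5 members not tested for low counts were Kcnj15, Kcnk18, Kcnk7, Kcnmb3 and Kcnv2.

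The count rested on a few libraries. It was 39 without DG Sal 3 and SVZ Sal 1, 15 without DG Sal 1, 15 without NAc Sal 3, 15 without SVZ Sal 3, and 2 (Kcnc4 and Kcnh6) without both DG Sal 1 and DG Sal 2. The 8 hippocampal and 8 subcortical saline libraries overlapped for every member tested, while 0.219% of all genes did not overlap.

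Among the inward rectifiers, the Kir3 (GIRK) subunits carry slow inhibition by G protein-coupled receptors. Kcnj6 (GIRK2) lay at 27.9 to 160 CPM (median 84.5) in the 8 hippocampal saline libraries and at 6.03 to 38.3 CPM (median 18.9) in the 8 subcortical ones. The groups overlapped through DG Sal 3, the library with striatal markers, which had the lowest hippocampal level. The log2 difference was 1.98 ± 0.36 (SE, FDR = 0.00782, edgeR). Kcnj3 (GIRK1), which combines with Kcnj6, had 24.1 to 134 CPM (median 89.2) against 13.8 to 54.3 CPM (median 23.9), a log2 difference of 1.57 ± 0.33 (FDR = 0.0115, edgeR). Its lowest hippocampal level was again in DG Sal 3 and its highest subcortical level in SVZ Sal 1. Kcnj9 (GIRK3) did not pass the test, with a log2 difference of 0.81 ± 0.40 (FDR = 0.192, edgeR), and SVZ Sal 1 (143 CPM) lay above every hippocampal saline library. Without DG Sal 3 and SVZ Sal 1, the log2 differences were 2.24 for Kcnj6, 1.92 for Kcnj3 and 1.52 for Kcnj9.

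Kcnj2 (Kir2.1), a strong rectifier that holds cells near the K+ equilibrium potential, had the opposite order. Hippocampal saline libraries had 5.64 to 20 CPM (median 6.67), the highest being DG Sal 3, and subcortical ones 7.88 to 39.1 CPM (median 24.7), the lowest being SVZ Sal 1. The log2 difference was -1.42 ± 0.32 (FDR = 0.0136, edgeR). Kcnj4 (Kir2.3), of the same class, gave -0.57 ± 0.32 (FDR = 0.248, edgeR). The glial rectifiers did not pass the test, with log2 differences of -0.18 ± 0.14 for Kcnj10 and -1.0 ± 0.59 for Kcnj16, its partner Kir5.1. Kcnj8, the pore of the vascular ATP-sensitive channel, gave -0.51 ± 0.21. The FDR values of Kcnj10, Kcnj16 and Kcnj8 were 0.396, 0.275 and 0.127 in edgeR's test. In all, 2 of 12 inward rectifiers tested were higher and 1 was lower.

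Of the Kv3 subunits, which allow narrow spikes and fast firing, 1 of 4 passed the test. Kcnc4 had 35.9 to 96.9 CPM (median 69.6) in hippocampal and 8.98 to 49 CPM (median 21.7) in subcortical saline libraries. The lowest hippocampal level, in DG Sal 3, lay among the upper subcortical ones. Its log2 difference of 1.68 ± 0.29 (FDR = 0.00734, edgeR) passed the threshold in 23 of 23 alternatives, with FDR values up to 0.047. Kcnc1 and Kcnc2 gave -0.085 ± 0.36 and -0.31 ± 0.61 (FDR = 0.896 and 0.771, edgeR). In both genes SVZ Sal 1 lay far above the other subcortical saline libraries, and without it and DG Sal 3 the differences were 0.48 and 1.04.

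The silent subunits Kcng2, Kcns1 and Kcns3, which change the gating of Kv2 channels, were higher in the hippocampal regions (3 of 9 silent subunits tested, 0 lower). Kcng2 had 7.05 to 51 CPM (median 18) against 1.51 to 9.87 CPM (median 6.01), with a log2 difference of 1.75 ± 0.36 (FDR = 0.0102, edgeR). CA Sal 1, CA Sal 3 and CA Sal 2 had the highest levels, and DG Sal 4 and DG Sal 2 overlapped with the SVZ. Kcns3 gave 1.86 ± 0.46 (FDR = 0.0198, edgeR). Kcns1 had the largest log2 difference of the 24 members, 2.31 ± 0.62 (FDR = 0.0279, edgeR), and passed in 14 of 23 alternatives. Its hippocampal levels ran from 0.762 CPM in DG Sal 3 to 29.5 CPM in DG Sal 2. In raw counts DG Sal 2 had 338, the other DG Sal libraries 12 to 104 and CA Sal libraries 64 to 140. NAc Sal 1 to 4 had raw counts of 19, 9, 7 and 39. SVZ Sal 1 had 5.707 CPM and the other SVZ Sal libraries 0.9504 to 1.382 CPM. Kcnf1 and Kcns2 gave -0.10 ± 0.37 and -0.22 ± 0.27 (FDR = 0.887 and 0.611, edgeR).

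**Figure D2:**
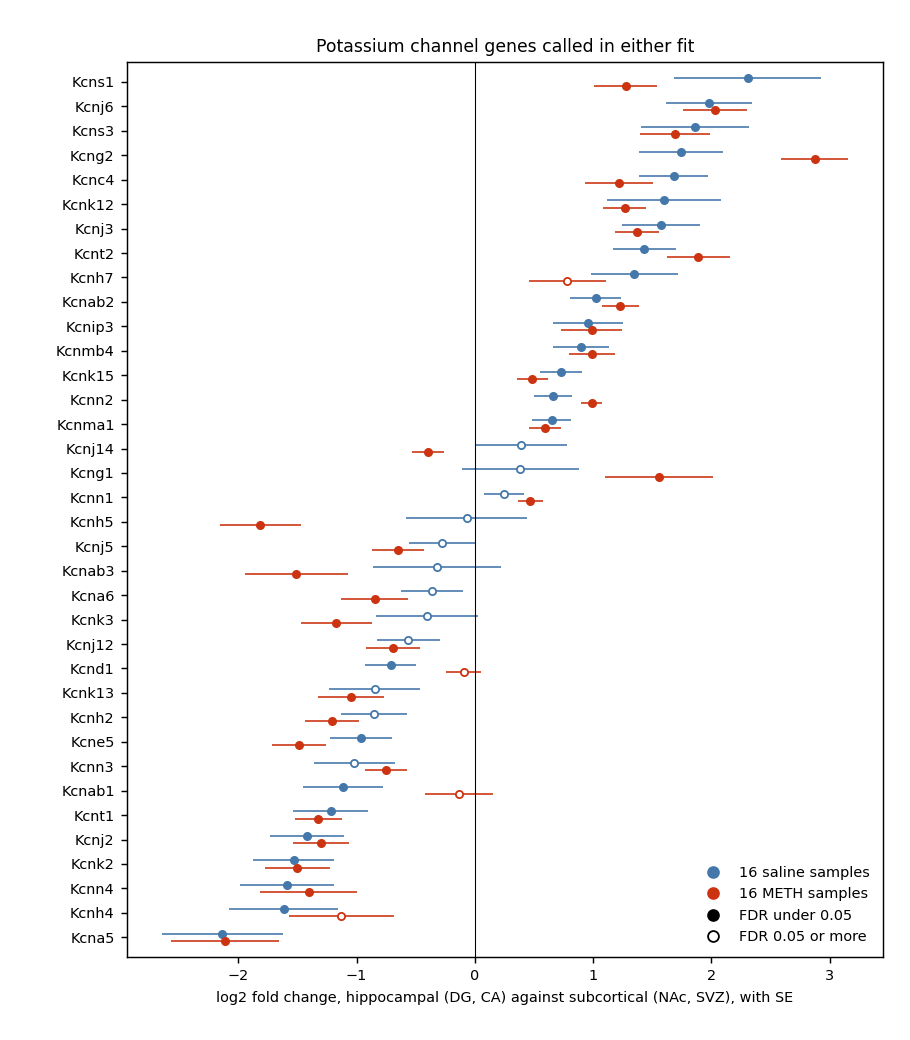
Log2 difference of the hippocampal (DG, CA) from the subcortical (NAc, SVZ) regions, with its standard error, in 16 saline (blue) and 16 METH (red) libraries, for 36 members with an FDR under 0.05 in either fit; filled points have an FDR under 0.05. Kcnj6, Kcnj3, Kcng2 and Kcnt2 lie above 1, and Kcna5, Kcnk2 and Kcnj2 below -1, in both fits.

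The sodium-activated subunits, which open after bursts of spikes, went in opposite directions. Kcnt2 (Slick) had 20.6 to 64.1 CPM (median 46.4) in hippocampal and 6.51 to 29.1 CPM (median 14.6) in subcortical saline libraries, a log2 difference of 1.44 ± 0.26 (FDR = 0.00796, edgeR). Kcnt1 (Slack) had 15.2 to 118 CPM (median 63.1) against 55.3 to 197 CPM (median 151), a difference of -1.22 ± 0.32 (FDR = 0.0247, edgeR). The groups overlapped for both, with the highest hippocampal Kcnt1 level in DG Sal 3 and the lowest subcortical level in SVZ Sal 1.

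BK and SK channels link calcium entry to the afterhyperpolarisation. Kcnma1 had 119 to 286 CPM (median 253) against 115 to 204 CPM (median 150), a log2 difference of 0.65 ± 0.16 (FDR = 0.0222, edgeR). Of the 8 hippocampal libraries, DG Sal 3 was the low one. Its neuronal auxiliary subunit Kcnmb4 gave 0.90 ± 0.24 (FDR = 0.0269, edgeR) and Kcnn2 (SK2) 0.66 ± 0.16 (FDR = 0.0182, edgeR). Kcnn4, the IK channel, was lower in the hippocampal regions, with -1.59 ± 0.40 (FDR = 0.0216, edgeR), at 0 to 1.43 CPM in saline libraries.

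Tandem-pore channels give the leak conductance at rest. Kcnk2 (TREK-1), opened by stretch and lipids, had 15.5 to 58.8 CPM (median 27.1) in hippocampal and 33.3 to 204 CPM (median 87.8) in subcortical saline libraries, with a log2 difference of -1.53 ± 0.34 (FDR = 0.0141, edgeR). DG Sal 3 had the highest hippocampal and SVZ Sal 1 the lowest subcortical level. Kcnk1 and Kcnk9 gave 0.16 ± 0.23 and 0.46 ± 0.28 (FDR = 0.685 and 0.288, edgeR). In this class 2 of 11 were higher and 1 was lower, the former being Kcnk12 (1.6 ± 0.48) and Kcnk15 (0.73 ± 0.18), named after their values were seen.

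Kv1 channels and their beta subunits did not go one way. Kcna5 (Kv1.5) had 1.31 to 17.8 CPM (median 3.4) against 2.08 to 27.1 CPM (median 20.6), a log2 difference of -2.13 ± 0.51 (FDR = 0.0183, edgeR). DG Sal 3 and SVZ Sal 1 were the libraries that overlapped with the other group. Kcnab2 was higher in the hippocampal libraries, with 107 to 512 CPM (median 275) against 101 to 215 CPM (median 133), by 1.02 ± 0.21 on the log2 scale (FDR = 0.0115, edgeR), while Kcnab1 was lower (-1.11 ± 0.34, FDR = 0.0461, edgeR). The Kcnab1 call held in 8 of 23 alternatives. The axonal subunits Kcna1 and Kcna2 gave 0.0021 ± 0.24 and 0.30 ± 0.26, and the A-type subunit Kcna4 gave -0.78 ± 0.26 (FDR = 0.996, 0.47 and 0.0594, edgeR). Kcne5, a small membrane beta subunit, was lower (-0.96 ± 0.26, FDR = 0.0288, edgeR).

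Of the 5 Kv7 members 0 passed, and Kcnq3 and Kcnq5 gave 0.19 ± 0.22 and 0.10 ± 0.40. Kcnip3, the KChIP also known as DREAM, was higher (0.96 ± 0.30, FDR = 0.0479, edgeR) and passed in 9 of 23 alternatives, while Kcnip1, Kcnip2 and Kcnip4 did not pass. Kcnd3, a Kv4 subunit that KChIPs bind, gave 0.29 ± 0.26 (FDR = 0.485, edgeR). Kcnh4 (ELK1) was lower (-1.62 ± 0.46, FDR = 0.0341, edgeR), with 2.74 CPM in SVZ Sal 1 and at least 18.1 CPM in the other subcortical saline libraries, and passed in 11 of 23 alternatives. Kcnh3 (ELK2) gave 0.45 ± 0.43 (FDR = 0.512, edgeR).

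**Figure D3:**
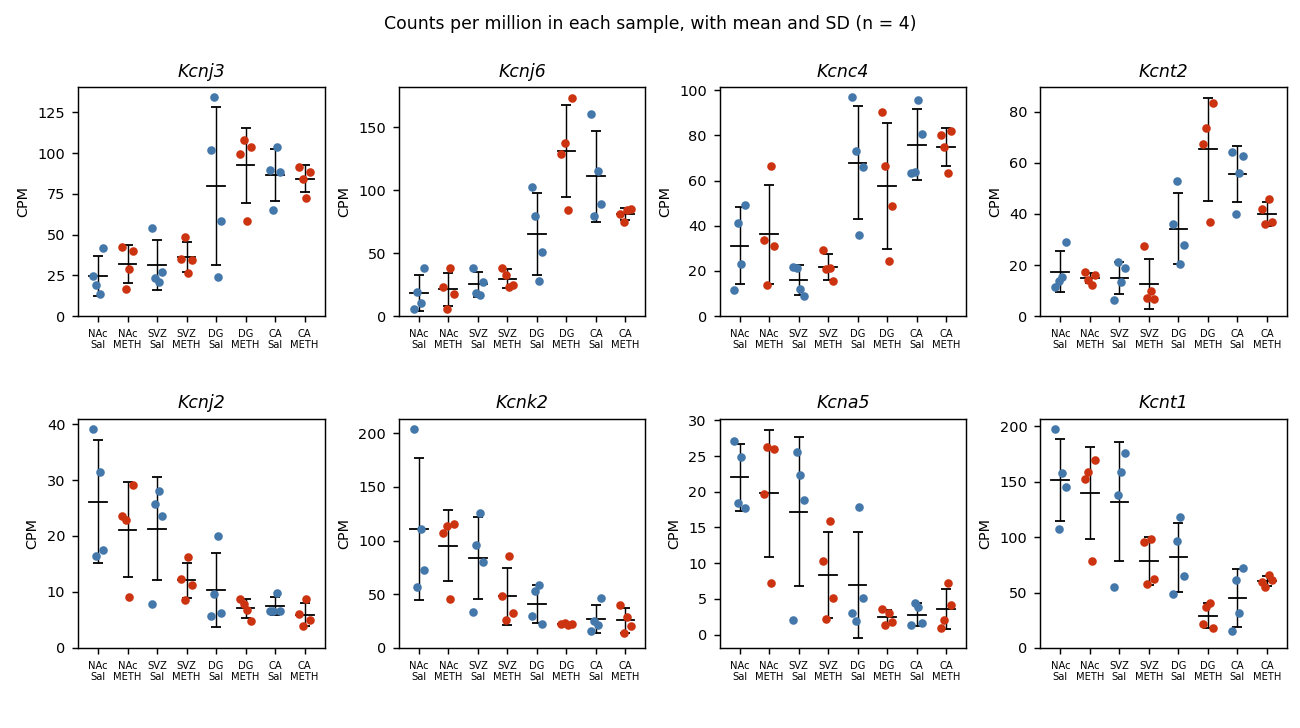
Level in CPM of Kcnj3, Kcnj6, Kcnc4, Kcnt2, Kcnj2, Kcnk2, Kcna5 and Kcnt1 in every library, by region and treatment (blue for saline, red for METH), with the mean (line) and SD (bar) of 4 libraries. The first 4 genes are higher in most DG and CA libraries (Kcnj6 medians 84.5 and 84.7 CPM, against 18.9 and 24 CPM), and the last 4 are lower in most.

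Within the 16 METH libraries, which the saline fit does not use, the same contrast gave 33 of 78 members at an FDR under 0.05 (42.3%, beside 28.5% of 15615 genes), 17 higher (12.1% of all genes) and 16 lower (16.4% of all genes). All 24 members called in saline libraries had the same sign in METH libraries. Both fits called 20 members, all with one sign, which are 83.3% of the saline calls and 60.6% of the METH calls. This overlap and agreement of sign were not computed over all genes, so neither is read as particular to members. The count in METH libraries was 35 without NAc METH 3, SVZ METH 2 and SVZ METH 4, and 24 without DG METH 1 and 2.

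In METH libraries the hippocampal and subcortical groups of 8 did not overlap for 8 members, all higher in the hippocampus (Kcnab2, Kcng2, Kcnj3, Kcnj6, Kcnma1, Kcnn2, Kcns3 and Kcnt2), while 4.02% of all genes did not overlap. Kcng2 had 16.3 to 56.8 CPM (median 41) against 1.71 to 7.77 CPM (median 5.51), a log2 difference of 2.87 ± 0.29 (FDR = 1.9e-05, edgeR). Every hippocampal library lay above every subcortical one. Kcnj6 had 74.8 to 173 CPM (median 84.7) against 6.02 to 38.5 CPM (median 24), with a difference of 2.03 ± 0.27 (FDR = 0.000153, edgeR). Kcnj3 had 58.4 to 108 CPM (median 89.9) against 16.9 to 48.7 CPM (median 34.9), with 1.37 ± 0.19 (FDR = 0.000176, edgeR). Both GIRK subunits were thus separated without exception in these libraries. Kcnt2 and Kcnn2 gave 1.89 ± 0.27 and 0.99 ± 0.092, and Kcnc4, whose groups overlapped, gave 1.22 ± 0.29 (FDR = 0.00671, edgeR).

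On the lower side in METH libraries Kcna5 (-2.12 ± 0.46), Kcnk2 (-1.5 ± 0.27), Kcnt1 (-1.32 ± 0.20) and Kcnj2 (-1.30 ± 0.23) all passed. Kcnab1 and Kcnh4 did not pass (-0.14 ± 0.29 and -1.13 ± 0.44, FDR = 0.755 and 0.0671, edgeR). Whether the contrast differs between saline and METH libraries was not tested.

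A joint test of any difference among the 4 regions gave fewer calls in saline libraries. There 7 members passed (8.97%, beside 5.79% of all genes), namely Kcng2, Kcnc4, Kcnt2, Kcnj6, Kcnab2, Kcnh6 and Kcnj3. The count was 34 without DG Sal 3 and SVZ Sal 1, and 3 with the replicate number as a block. With 1 library left out it was 0 without CA Sal 1, CA Sal 3, NAc Sal 3 or SVZ Sal 3, 3 without SVZ Sal 2, 4 without CA Sal 2, CA Sal 4, NAc Sal 1, NAc Sal 2 or SVZ Sal 4, and 19 without DG Sal 3 or SVZ Sal 1. In METH libraries 32 members passed (41%, beside 28.7% of all genes). Kcnh6, an ERG subunit named after its values were seen, had 132 CPM in DG Sal 4 and 1.52 to 5.52 CPM in the other saline libraries.

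Between DG and CA, no member passed in edgeR's test. In saline libraries 0 of 78 had an FDR under 0.05 by edgeR (0% of all genes) and 0 by DESeq2. In edgeR's test 5 had an unadjusted p under 0.05 (6.41%, beside 8.93% of all genes). Kcng2 gave -1.46 ± 0.49 (FDR = 0.482, edgeR). In METH libraries the count was again 0 (0.0256% of all genes), with 8 at an unadjusted p under 0.05 (10.3%, beside 10.9% of all genes). DESeq2 called 3 there, Kcnf1, Kcnn3 and Kcnt1, and its share over all genes was not computed.

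Between the NAc and SVZ, 0 of 78 members passed in saline libraries by edgeR (0.11% of all genes) and 0 by DESeq2. In edgeR's test 5 had an unadjusted p under 0.05 (6.41%, beside 12.6% of all genes). In METH libraries 3 passed (3.85%, beside 3.5% of all genes), all lower in the NAc (1.88% of all genes), and 0 did with the replicate number as a block. Region and sequencing run cannot be told apart in this contrast. The 3 were Kcnj9 (-1.25 ± 0.29, FDR = 0.0343, edgeR), Kcnk12 (-1.02 ± 0.26, FDR = 0.0446) and Kcnn2 (-0.52 ± 0.13, FDR = 0.0459). Without NAc METH 3, SVZ METH 2 and SVZ METH 4, 5 other members passed (Kcna2, Kcnh1, Kcnh5, Kcnj4 and Kcnk16) and these 3 did not. With 1 library left out, the count was 0 without NAc METH 1, 2 or 4 or SVZ METH 2 or 4, 1 without any of CA METH 1 to 4 or DG METH 2, 14 without NAc METH 3 and 18 without SVZ METH 1.

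The SVZ libraries differed in member levels along with their marker sums. Kcnc2 (Kv3.2) had 760.3, 51.9, 19.4 and 43.3 CPM in SVZ Sal 1 to 4, and 49.5, 614, 151 and 386 CPM in SVZ METH 1 to 4. SVZ Sal 1, METH 2 and METH 4 were the high ones, in both treatments. Kcnc1 (Kv3.1) was at 416, 359 and 328 CPM in these 3 libraries and at 60.4 to 116 CPM in the other 5. Kcna2 had 696, 708 and 531 CPM there, and 172 to 222 CPM in the others. Kcnq5, a Kv7 subunit, had the reverse order, with 13.3, 10.2 and 34.7 CPM in the 3 libraries and 83.8 to 181 CPM in the others. The same 3 libraries had the high sums of thalamic markers and sums of 6 oligodendrocyte markers of 18400, 25460 and 27200 CPM (3793 to 9321 in the others), whose part in the member levels was not tested.

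**Figure D4:**
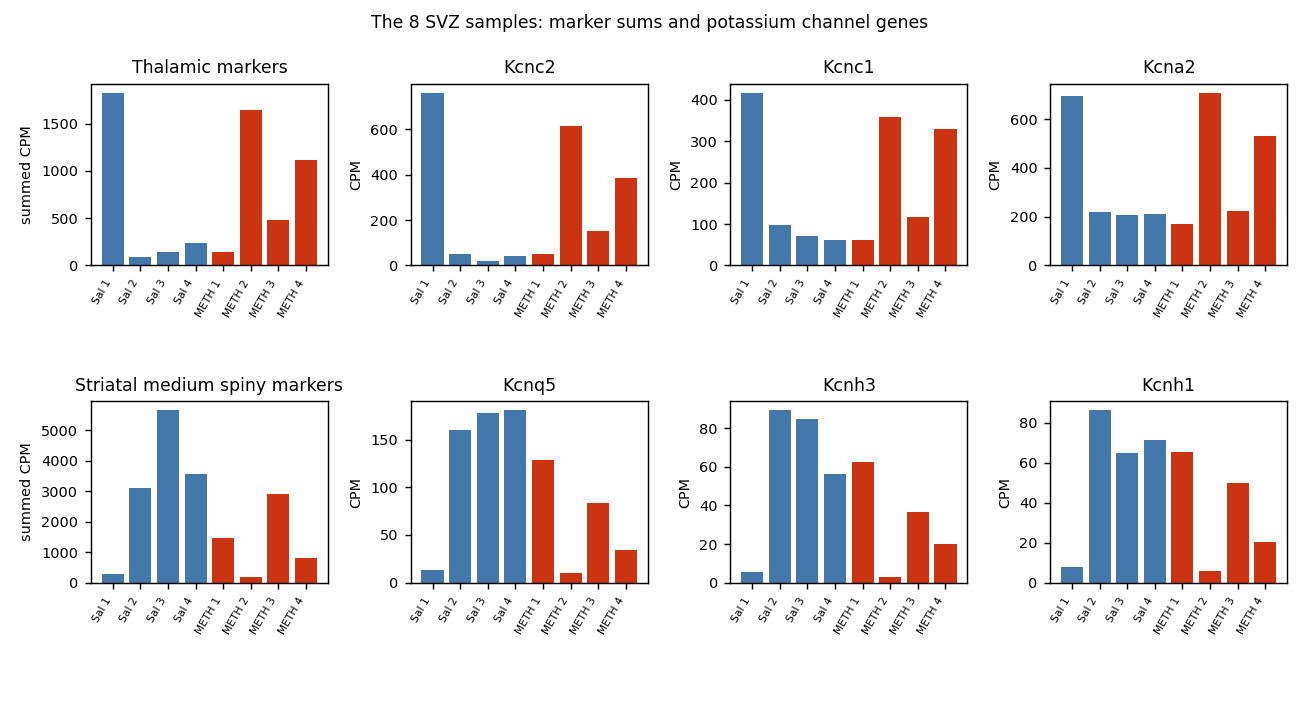
Bars of the summed CPM of 5 thalamic and 8 striatal medium spiny markers and of the CPM of Kcnc2, Kcnc1, Kcna2, Kcnq5, Kcnh3 and Kcnh1 in the 8 SVZ libraries (blue for saline, red for METH), each axis from 0. SVZ Sal 1, METH 2 and METH 4 have the highest thalamic sums and the highest Kcnc2, Kcnc1 and Kcna2, and the lowest striatal sums, Kcnq5, Kcnh3 and Kcnh1.

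Kcne2, a small membrane beta subunit abundant in choroid plexus epithelium, was high in single libraries. It had 48.6 CPM in DG Sal 4, 42.8 CPM in DG METH 3, 40.5 CPM in SVZ METH 3 and 15.5 CPM in CA Sal 2, and at most 4.02 CPM in the others. The sum of 5 choroid plexus markers was 2046, 6119, 8239 and 2141 CPM in these 4 libraries and at most 382 CPM in the others, and its part in the Kcne2 level was not tested.

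The second question was whether METH altered member levels in each region. In no region did a member pass an FDR under 0.05 in edgeR's test. At an unadjusted p under 0.05 the DG had 19 of 75 members tested (25.3%, beside 12.8% of 14800 genes), 10 higher (6.35% of all genes) and 9 lower (6.42% of all genes) with METH. The CA had 7 of 75 (9.33%, beside 7.16% of all genes), the NAc 5 of 75 (6.67%, beside 3.39%) and the SVZ 2 of 78 (2.56%, beside 2.58%). The share of all genes with an FDR under 0.05 was 0% in the NAc, CA and SVZ and 0.00676% (1 gene) in the DG. DESeq2 called 7 members in the DG (Kcnf1, Kcng2, Kcng4, Kcnh5, Kcnip2, Kcnk3 and Kcnt1) and 0 in each other region. The share of all genes that DESeq2 called was not computed, so its count is not read as particular to members. In the DG, treatment and sequencing run were nearly confounded, since DG Sal 3 was the only DG Sal library from a run that also held DG METH libraries (METH 1 and 2). With the run as a covariate the counts at an unadjusted p under 0.05 were 6 in the CA and 2 in the NAc. In the CA, the prefix merged of CA Sal 1 and 2 was taken as a run. In the DG that fit compares only DG Sal 3, the library with striatal markers, with METH 1 and 2, so no count is given. These METH libraries carry the library numbers of Sal 1 and 2.

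**Figure D5:**
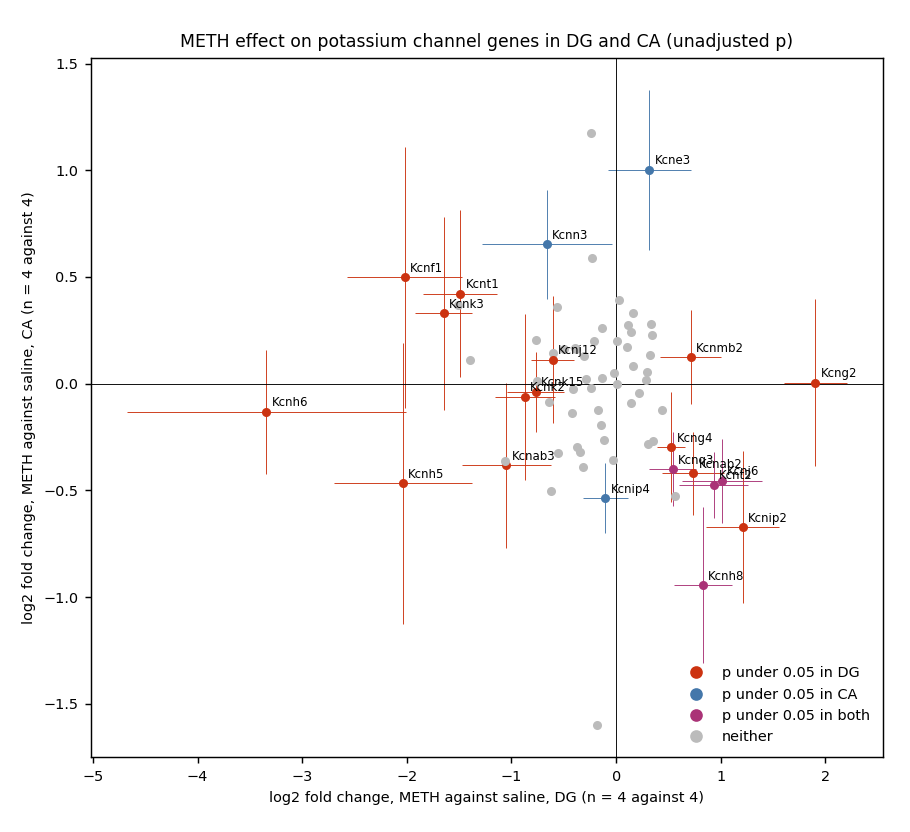
Log2 fold change of METH against saline in the CA (vertical axis) against that in the DG (horizontal axis) for 72 of the members tested, 4 libraries against 4 in each region. Members with an unadjusted p under 0.05 in the DG (red), the CA (blue) or both (purple) are named and have standard errors, and the others are grey; Kcng2 lies at 1.90 and Kcnf1 at -2.02 on the DG axis.

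In the DG, the silent subunits Kcng2 and Kcnf1 gave differences in opposite directions. Kcng2 had 19.6, 9.26, 12.1 and 7.05 CPM in DG Sal 1 to 4, and 56.8, 38.5, 40.1 and 44.1 CPM in DG METH 1 to 4. Every METH library lay above every saline library. The log2 fold change was 1.90 ± 0.30 (FDR = 0.157, edgeR), and 2.13 without DG 1 and 2 of both treatments. Kcnf1 had 120.5, 85.2, 61.7 and 57.7 CPM with saline and 28.4, 28.1, 19.9 and 3.7 CPM with METH, without overlap. Its log2 fold change was -2.02 ± 0.55 (FDR = 0.216, edgeR). In the CA, Kcng2 had 51, 25, 39.9 and 16.5 CPM with saline and 16.3, 46.6, 28.9 and 41.9 CPM with METH, so that the groups overlapped.

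Leak and sodium-activated subunits came next in the DG. Kcnk3 (TASK-1), an acid-sensitive leak channel, had 16.6, 21.4, 14.5 and 13.6 CPM with saline and 3.62, 8.16, 5.12 and 4.21 CPM with METH, without overlap. The log2 fold change was -1.65 ± 0.27 (FDR = 0.157, edgeR). Kcnt1 had 48.7, 96.7, 118 and 64.7 CPM with saline and 21.4, 36.9, 40.5 and 17.9 CPM with METH, again without overlap. Its log2 fold change was -1.49 ± 0.35 (FDR = 0.184, edgeR). Kcnt2 had 35.9, 52.8, 20.6 and 27.8 CPM against 67.4, 73.5, 36.7 and 83.4 CPM, higher with METH but overlapping, and 0.93 ± 0.33 (FDR = 0.298, edgeR). Kcnk2 gave -0.87 ± 0.29 (FDR = 0.28, edgeR).

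Members higher with METH in the DG at this unadjusted level also included Kcnip2 and Kcnj6. Kcnip2, a KChIP of Kv4 channels, had 4.31, 6.03, 5.46 and 1.8 CPM with saline and 11.9, 10.2, 6.8 and 11.7 CPM with METH, a log2 fold change of 1.21 ± 0.35 (FDR = 0.239, edgeR). Its levels did not overlap between treatments. Kcnj6 had 102, 79.2, 27.9 and 51.1 CPM against 129, 137, 84.3 and 173 CPM, with overlap, and 1.01 ± 0.38 (FDR = 0.33, edgeR). Without DG Sal 3, the library with striatal markers and the lowest Kcnj6 level, the log2 fold change was 0.76. Kcnab2 and Kcnq3 gave 0.73 ± 0.30 and 0.54 ± 0.22.

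In all, 4 members were higher and 3 lower in every METH than in every saline library of the DG, with Kcng4, named after its values were seen, among the higher ones. Groups did not overlap for 7.4% of all genes tested in the DG. The count at an unadjusted p under 0.05 was 10 without DG 1 and 2 of both treatments and 21 without DG Sal 3. The sum of 6 dentate granule markers was 285, 114, 179.6 and 134 CPM in DG Sal 1 to 4 and 521, 425, 99.7 and 339.8 CPM in DG METH 1 to 4. Granule sums did not set the DG apart in saline libraries, with medians of 157 CPM in DG Sal, 165 CPM in NAc Sal and 191 CPM in SVZ Sal. Of 12 lists of cell type markers, the astrocyte list alone did not overlap between treatments in the DG, with sums of 2432 to 3012 CPM with saline and 3443 to 3659 CPM with METH. The sum of 6 CA pyramidal markers was 1384 and 1232 CPM in DG METH 2 and 4, 296 and 410 CPM in DG METH 1 and 3, and 356 to 636 CPM in DG Sal libraries. Wfs1 alone had 897 and 702 CPM in DG METH 2 and 4. This list did not set the CA apart, with a median sum of 621 CPM in NAc METH and 614 CPM in CA METH libraries. The part of granule, pyramidal and astrocyte markers in these differences was not tested.

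In the CA, Kcnip4, a KChIP, had 55.7, 44.6, 55 and 60.7 CPM in CA Sal 1 to 4 and 50.7, 36.1, 30.4 and 32.2 CPM in CA METH 1 to 4, a log2 fold change of -0.54 ± 0.17 (FDR = 0.669, edgeR). The groups overlapped through CA METH 1. Kcnt2 followed with -0.47 ± 0.15 and Kcne3, a small membrane beta subunit, with 1.0 ± 0.37. Kcnq3 and Kcnj6, higher with METH in the DG at an unadjusted p under 0.05, gave -0.40 ± 0.17 and -0.45 ± 0.20 in the CA. No member was separated between treatments, beside 4.45% of all genes. The count of 7 was 3 without CA METH 4, 4 without CA Sal 1 and 11 without CA Sal 2.

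An interaction term tested whether the effect of METH differed between both hippocampal regions. Of 77 members tested, 0 passed an FDR under 0.05 in edgeR's test (0% of all genes) and 16 had an unadjusted p under 0.05 (20.8%, beside 15.4% of all genes), 10 of them with a higher value in the DG (7.26% of all genes) and 6 with a lower one (8.11% of all genes). Kcnt2 gave 1.40 ± 0.39 (FDR = 0.145), Kcng2 1.89 ± 0.54 (FDR = 0.153), Kcnip2 1.87 ± 0.53 (FDR = 0.153) and Kcnj6 1.45 ± 0.46 (FDR = 0.168, edgeR). On the lower side, Kcnk3 gave -1.98 ± 0.58 (FDR = 0.154), Kcnt1 -1.92 ± 0.57 (FDR = 0.156) and Kcnf1 -2.53 ± 0.90 (FDR = 0.212, edgeR). The saline library CA Sal 1 had raw counts of 108 for Kcnf1 and 268 for Kcnt1 (at least 805 and 526 in the other CA Sal libraries). It had 233 for Kcnip2 and 2827 for Kcnj6 (at most 110 and 1896 in the others). The dentate granule marker sum was 400.5 CPM in CA Sal 1, 562.3 CPM in CA Sal 3 and 132.3 and 183.4 CPM in CA Sal 2 and 4. This sum did not set the DG Sal libraries apart from other regions, and its part in the interaction was not tested. DESeq2 called 7 members and the fit with 2 RUVr factors 9, and a share over all genes was computed for neither.

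In the NAc, the silent subunit Kcng1 had 81.2, 27, 42.1 and 36.2 CPM with saline and 22.4, 26.1, 16.9 and 24.4 CPM with METH. These did not overlap, as for 2.26% of all genes. The log2 fold change was -1.04 ± 0.32 (FDR = 0.999, edgeR). Kcne5 gave 0.54 ± 0.21. The astrocyte sum did not overlap here either, with 2555 to 2705 CPM with saline and 2942 to 4222 CPM with METH. Of its genes, Gfap (226 to 284 against 359 to 1069 CPM) and Slc1a3 (567 to 633 against 753 to 853 CPM) did not overlap. Aqp4, Gja1, Aldh1l1 and Slc1a2 overlapped. The part of this sum was not tested. The count of 5 was 6 without NAc METH 3, 2 without NAc METH 1, 2 without NAc Sal 3 and 3 without NAc METH 4.

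In the SVZ, Kcna4, a Kv1 subunit with fast inactivation, had 58.6, 77.2, 108 and 110.3 CPM with saline and 62.3, 50.4, 67.6 and 49.6 CPM with METH. These overlapped, and the log2 fold change was -0.62 ± 0.22 (FDR = 0.979, edgeR). Groups did not overlap for 1 of 78 members, beside 1.59% of all genes. Kcne2 gave 2.73 through SVZ METH 3. The count of 2 was 29 without SVZ Sal 1, 18 without SVZ Sal 1, METH 2 and METH 4, 5 without METH 1, 6 without METH 3 and 1 without Sal 3 or Sal 4. Shares over all genes were not computed for these fits, so their counts are not read as particular to members.

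Averaged over the 4 regions, 0 of 79 members tested passed in edgeR's test (0% of all genes), and DESeq2 called 0. This fit is secondary, since it takes regions that may come from one rat as independent. At an unadjusted p under 0.05 there were 5 (6.33%, beside 7.83% of all genes), 1 of them higher with METH (4.29% of all genes) and 4 lower (3.54% of all genes). Kcnt1 gave -0.49 ± 0.19, Kcnj2 -0.50 ± 0.20 and Kcnk2 -0.49 ± 0.23 (FDR = 0.565, 0.567 and 0.622, edgeR). The count was 14 without SVZ Sal 1, 8 without DG METH 1 and 8 without SVZ METH 1.

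Partner genes are those outside the rule whose proteins bind, cluster or complete potassium channels, with the related HCN channels. Of 18 listed, 15 were tested for the saline regions and 16 for the METH regions. In saline libraries 1 passed for the hippocampal against the subcortical regions (6.67%, beside 12.1% of all genes). In METH libraries 7 passed (43.8%, beside 28.5% of all genes). The Kv1-associated Lgi1 (1.36 ± 0.17) and the sulfonylurea receptor gene Abcc8 (0.42 ± 0.14) were higher. Hcn4 (-1.67 ± 0.42), Hcn2 (-0.84 ± 0.24), Cntn2 (-0.81 ± 0.29) and the Kv4 partner Dpp10 (-0.58 ± 0.16) were lower. Hcn4, Hcn2 and Cntn2 were highest in SVZ METH 2 and 4, which had high thalamic sums. These had 79.7 and 58.5, 347 and 271, and 456 and 412 CPM, beside 11.65 and 17.4, 70.7 and 130, and 203 and 172 CPM in SVZ METH 1 and 3. Dpp10 had 17.1 to 32.5 CPM in DG METH libraries. In CA METH libraries it had 41.7 to 70.2 CPM, within the subcortical METH range of 34.3 to 77.4 CPM. METH against saline gave 0 partners at an FDR under 0.05 in each region in edgeR's test, with 3 of 14 at an unadjusted p under 0.05 in the DG (21.4%, beside 12.8% of all genes), 0 in the CA (beside 7.16%), 0 in the NAc (beside 3.39%) and 1 of 15 in the SVZ (6.67%, beside 2.58%).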

How the data were processed

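RNA-seq was made from total RNA depleted of ribosomal RNA in 32 libraries. Per the labels and the study's methods, the authors trimmed reads with cutadapt 2.7, checked them with FastQC 0.11.4 and aligned them to rn6 with STAR 2.5.2b. Per the file headers, the deposited values are raw counts per gene from featureCounts 1.6.3, counted without strand (Ensembl gene models per the headers, UCSC ones per the methods). No member's exons overlap those of another gene there.

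Counts were tested with edgeR 4.0.16 (R 4.3.3; quasi-likelihood, upper-quartile normalization, filterByExpr), with 4 libraries a group. CPM used the upper-quartile library sizes, so 1 read was worth 0.0459 to 0.094 CPM. A standard error is the absolute log2 fold change over the square root of F. DESeq2 1.42.0, 2 RUVr factors, TMM and other alternatives are given in the closing section.

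Genes named were a fixed list, the 5 largest called differences per direction and contrast, the 3 lowest p-values per region for METH, and the 5 highest mean RPKM. Others are said to be named after their values were seen. The results of some genes in the counts are not reported here. The members and lists were chosen with earlier results of these data known.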

Additional observations from a re-analysis of the deposited data

Results flagged for a closer look

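Of 360 groups of 4 libraries (45 named members in 8 groups), those whose highest library reached 1 CPM were checked. Among these, 32 had a highest or lowest library whose gap to the nearest other exceeded Dixon's 95% critical value. Chance flags about 1 in 20 groups checked. SVZ Sal 1 accounted for 9 of them and NAc METH 3 for 7.

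SVZ Sal 1 lay above the other SVZ Sal libraries for Kcna1 (181 CPM), Kcna2 (695.5 CPM), Kcnc1 (416.4 CPM), Kcnc2 (760.3 CPM), Kcnj16 (46.41 CPM), Kcnj9 (143.1 CPM), Kcnk1 (106.4 CPM) and Kcns1 (5.707 CPM). It lay below them for Kcnq5 (13.35 CPM). NAc METH 3 lay above the other NAc METH libraries for Kcnip1 (42.61 CPM), Kcnj16 (59.49 CPM) and Kcnk3 (27.31 CPM), and below them for Kcnh4 (7.089 CPM), Kcnip2 (1.529 CPM), Kcnk2 (45.87 CPM) and Kcnq5 (41.56 CPM). Both are libraries with unusual marker sums.

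Kcne2 was far above the rest of its group in DG Sal 4 (48.59 CPM), DG METH 3 (42.76 CPM), CA Sal 2 (15.5 CPM) and SVZ METH 3 (40.52 CPM), the 4 libraries with choroid plexus marker sums of 2046 CPM or more.

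The other values far above their group were those of Kcnmb4 in CA METH 1 (57.82 CPM), Kcnh3 in CA METH 4 (129.5 CPM), Kcnj2 in CA Sal 3 (9.885 CPM), Kcnc1 in DG Sal 2 (221 CPM), Kcnj8 in NAc Sal 1 (3.165 CPM), Kcne3 in SVZ Sal 4 (1.67 CPM), Kcnn4 in SVZ Sal 2 (1.093 CPM) and Kcnt2 in SVZ METH 1 (27.29 CPM). Those far below were Kcnip4 in NAc Sal 1 (25.47 CPM), Kcnip1 in SVZ Sal 3 (12.61 CPM), Kcnmb4 in DG METH 1 (32.57 CPM) and Kcns1 in NAc METH 2 (0.43 CPM).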

How the results depend on the processing

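Counts are of members with an FDR under 0.05 unless an unadjusted p is named, and the cause of a change was not tested. Shares over all genes were not computed for these alternatives, so a changed count is not read as particular to members. For the hippocampal against the subcortical regions, the 24 saline calls became 2 without DG Sal 1 and 2, 39 without DG Sal 3 and SVZ Sal 1, 3 at an FDR under 0.01 and a fold above 2, and 15 to 33 with 1 library left out. The 33 METH calls became 16 at the stricter threshold and 29 to 40 with 1 library left out. Over the 4 regions, the 7 saline calls became 31 with 2 RUVr factors, 22 with DESeq2, 34 without DG Sal 3 and SVZ Sal 1, 0 at the stricter threshold and 0 to 19 with 1 library left out, and the 32 METH calls 50 with RUVr, 18 at the stricter threshold and 26 to 37. For DG against CA, the 0 saline calls became 2 without DG Sal 1 and 2, and the 0 METH calls 3 with RUVr, 3 with DESeq2 and 2 without the libraries that stand apart. For the NAc against the SVZ, the 0 saline calls became 1 with RUVr, and the 3 METH calls 23 with RUVr, 11 with DESeq2, 8 with the SVZ METH libraries of one number summed, 1 without a filter on low counts, 0 without DG METH 1 and 2, 5 without the libraries that stand apart, 0 at the stricter threshold and 0 to 18 with 1 library left out.

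For METH against saline, the 0 calls became 7 (RUVr), 7 (DESeq2) and 2 (one fit of all 32 samples) in the DG, with 0 to 1 when 1 library (DG Sal 1) was left out, 1 (RUVr) in the NAc, and 9 (RUVr) and 7 (DESeq2) for the interaction. At an unadjusted p under 0.05, RUVr gave 19 for the average, 23 in the CA, 22 in the NAc and 32 in the SVZ. DESeq2 gave 11 in the CA and 6 in the SVZ, and one fit of all samples 0 in the CA, 2 in the NAc and 6 in the SVZ. The sequencing run as a covariate gave 2 in the NAc, and could not be used in the SVZ, which had a single run. The DG had 10 without DG 1 and 2 of both treatments, and the SVZ 4 without a filter and 18 without the libraries that stand apart. With 1 library left out, these counts were 4 to 14 for the average, 3 to 11 in the CA, 13 to 22 in the DG, 2 to 6 in the NAc, 1 to 29 in the SVZ and 13 to 22 for the interaction.

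Replicate numbers were used as a block as an alternative. Deviations of same-numbered libraries correlated above 0.1 in every pair for Sal NAc with CA (0.119 to 0.243, beside -0.0921 to -0.0333 for other numbers), whose libraries also share library numbers, and not in every pair in the other 15 comparisons of groups. The replicate block moved the saline count over the 4 regions to 3, the METH count for the NAc against the SVZ to 0 and the NAc count at an unadjusted p under 0.05 to 3.

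Of named members, these differences between the hippocampal and subcortical regions in saline libraries changed sign, and none of them passed the test as reported. With RUVr, the replicate block and without DG Sal 3 and SVZ Sal 1, Kcnc1 gave 0.16, 0.0096 and 0.48 and Kcnc2 0.42, 0.067 and 1.04. The block gave 0.076 for Kcne3. Without DG Sal 1 and 2, Kcna1 gave -0.096, Kcnk1 -0.018 and Kcnq5 -0.022, and without DG Sal 3 and SVZ Sal 1 Kcnq5 gave -0.059 and Kcnk3 0.10. With 1 library left out at a time, values ranged from -0.11 to 0.24 for Kcna1, -0.23 to 0.45 for Kcnc1, -0.50 to 0.95 for Kcnc2, -0.26 to 0.30 for Kcne3, -0.27 to 0.095 for Kcnf1, -0.0035 to 0.59 for Kcng1, -0.15 to 0.042 for Kcnip1, -0.69 to 0.076 for Kcnk3 and -0.093 to 0.22 for Kcnq5. The METH effect on Kcne2 in the SVZ ranged from -0.23 (without SVZ METH 3) to 3.11. At 1 read being worth 0.0459 to 0.094 CPM, members under 1 CPM, such as Kcnn4, rest on few reads.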
